A study of Mus musculus with 24 samples.

Results

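The genes of the eosinophil and IL-33 axis were described in mouse hearts with experimental autoimmune myocarditis (EAM). The 10 genes were named by function, with earlier results of these data known, and matched by symbol to Ensembl identifiers, and all 10 were found among the 41388 genes of the count table. They are the eotaxins Ccl11 and Ccl24, the eosinophil surface genes Ccr3 and Siglecf, the granule genes Epx, Prg2 and Rnase2a, and the cytokine and receptor genes Il33, Il1rl1 and Il5. RNA was sequenced from hearts of wild type male BALB/cAnNCrl mice (Balb/c in the labels) culled at day 10, 15 or 21 (D10, D15, D21), with 4 EAM and 4 control hearts at each day and 24 hearts in all. EAM mice received an alpha myosin heavy chain peptide emulsified in supplemented complete Freund's adjuvant on days 0 and 7. Control mice received the same emulsion with PBS instead of the peptide, and mice of both groups were given pertussis toxin on day 0, so that adjuvant and toxin are shared by all 24 hearts. Mice were immunized at 8 to 10 weeks of age, and as far as possible hearts with inflammation were chosen for sequencing, so the EAM groups are not a random sample of immunized mice.

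IL-33 is held in the nucleus of endothelial cells, fibroblasts and other stromal cells and is released when they are damaged. It binds the receptor ST2, encoded by Il1rl1, on type 2 innate lymphoid cells, mast cells, eosinophils and some T cells, and these cells can answer with IL-5 and IL-13. IL-5 sustains eosinophils, while the eotaxins CCL11 and CCL24 draw them into tissue through CCR3, and in the tissue they carry granules filled with eosinophil peroxidase (Epx), major basic protein (Prg2) and ribonucleases of the Rnase2a family.

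Total counts per library ranged from 15814863 to 24980864, so that 3 reads, the limit that a count of 0 allows, corresponded to a CPM (count scaled by library size) of 0.105 to 0.2. In D10 EAM hearts, replicate 1 stood apart from the other 3, and D15 EAM replicate 2 stood apart in granule transcripts. Values without them stand beside the results that they moved. Library names of the 4 D21 EAM hearts begin with another code than those of the other 20 libraries, so the code and EAM at D21 cannot be told apart. Cardiomyocyte markers summed to between 8090 and 37300 CPM in every heart, as the tissue label says.

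Across the 4 members with enough reads at every day, Il33 had the largest difference between EAM and control hearts, Ccl11 rose at D15, and Ccl24 and Il1rl1 did not pass the test at any day. Of the 6 members tested at D15, 4 were called higher (Il33, Ccl11, Siglecf and Rnase2a) and 0 lower, where 18.1% of the 15693 genes tested were called higher and 12.9% lower. Siglecf and Rnase2a passed the filter on low counts (10 reads in 4 hearts) through the 4 EAM hearts alone, with 0 control hearts at 10 reads, so they could enter only if high in EAM hearts, and their calls do not count against that background. Il33, Ccl11, Ccl24 and Il1rl1 reached 10 reads in all 8 hearts. A gene was called when edgeR's quasi-likelihood test, adjusted by Benjamini-Hochberg over all genes kept, gave a false discovery rate (FDR) under 0.01 with at least a 2-fold change. At D10 and D21, 4 members were tested and 0 were called. The backgrounds were 0% higher and 0% lower at D10 and 4.13% higher and 1.16% lower at D21. At both days 1 of the 4, Il33, had an unadjusted p under 0.05. At D10 the count was also 0 with edgeR's likelihood ratio and exact tests, DESeq2 and limma-voom, and at D21 it was 1 (Il33) with the first 3 of these tools and 0 with limma-voom. The other 4 members, Ccr3, Epx, Prg2 and Il5, had fewer than 10 reads in too many hearts at every day to enter these fits. The labels and methods do not tie a replicate number to a shared litter or cage, and each library was treated as 1 heart.

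Il33 (chromosome 19, 29925114 to 29960718, plus strand) encodes the cytokine itself. Its level in control hearts was 14, 18.8, 20.2 and 10.8 CPM at D10, 7.97, 10.4, 11 and 11.1 CPM at D15, and 12.2, 10.2, 10.1 and 13.4 CPM at D21. In EAM hearts it was 89.8, 24.7, 43.5 and 18.5 CPM at D10. The D15 EAM hearts held 120, 73.4, 129 and 117 CPM, and those of D21 65.7, 44.9, 17.1 and 99.2 CPM. All 4 EAM hearts lay above all 4 controls at D15 and at D21, whereas at D10 replicate 4 lay within the control range and the other 3 above it. Of all genes tested, 4% at D10, 36.2% at D15 and 17.8% at D21 had all 4 EAM hearts above the controls, and 4.22%, 34.2% and 18.3% had them below. At D10 the control mean was 16 ± 4.35 CPM and the EAM mean 44.1 ± 32.3 CPM (SD, n = 4 in each group here and below). The means were 10.1 ± 1.48 and 110 ± 24.9 CPM at D15 and 11.5 ± 1.6 and 56.7 ± 34.6 CPM at D21, control first.

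The fitted log2 fold change of Il33 was 3.48 ± 0.19 at D15 (SE, edgeR adjusted p = 4.93e-07). At D10 it was 1.46 ± 0.47 (edgeR adjusted p = 0.328), and without replicate 1 it was 0.84 (adjusted p = 0.417). At D21 it was 2.34 ± 0.47 with an adjusted p of 0.0101 in edgeR, just past the limit. D21 EAM replicate 3, at 17.1 CPM, was the lowest EAM heart of that day, and without it the value was 2.62 (edgeR adjusted p = 0.000406), within the limit. The pan-leucocyte transcript Ptprc (CD45) stood at 48.9 CPM in that heart against 96.2 to 228 CPM in the other 3.

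Il1rl1 (chromosome 1, 40429570 to 40465415, plus strand) encodes the IL-33 receptor, as a membrane form and a soluble decoy that counts per gene cannot separate. Control hearts held 3.94, 2.92, 2.25 and 2.51 CPM at D10, 3.39, 2.95, 3.78 and 2.77 CPM at D15, and 2.95, 2.69, 2.98 and 4.66 CPM at D21. EAM hearts held 2.74, 2.15, 2.73 and 2.96 CPM at D10, 5.2, 2.84, 4.18 and 4.63 CPM at D15, and 3.1, 3.43, 2.2 and 2.81 CPM at D21. EAM and control hearts overlapped at each day, although 3 of 4 D15 EAM hearts lay above all controls of that day. The fitted log2 fold change was 0.42 ± 0.20 at D15 (edgeR adjusted p = 0.0873), -0.15 ± 0.21 at D10 (adjusted p = 0.702) and -0.17 ± 0.23 at D21 (adjusted p = 0.579). Without D15 EAM replicate 2, the heart with the lowest level of its group, the D15 value was 0.57 (edgeR adjusted p = 0.00924), still less than 2-fold. Per kilobase of exon, D15 EAM hearts held 38.1 RPKM of Il33 and 0.611 RPKM of Il1rl1, and D15 control hearts 3.51 and 0.467 RPKM. The length used here joins the exons of all annotated Il1rl1 transcripts, 6894 bases, and lowers that gene's value.

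**Figure D1:**
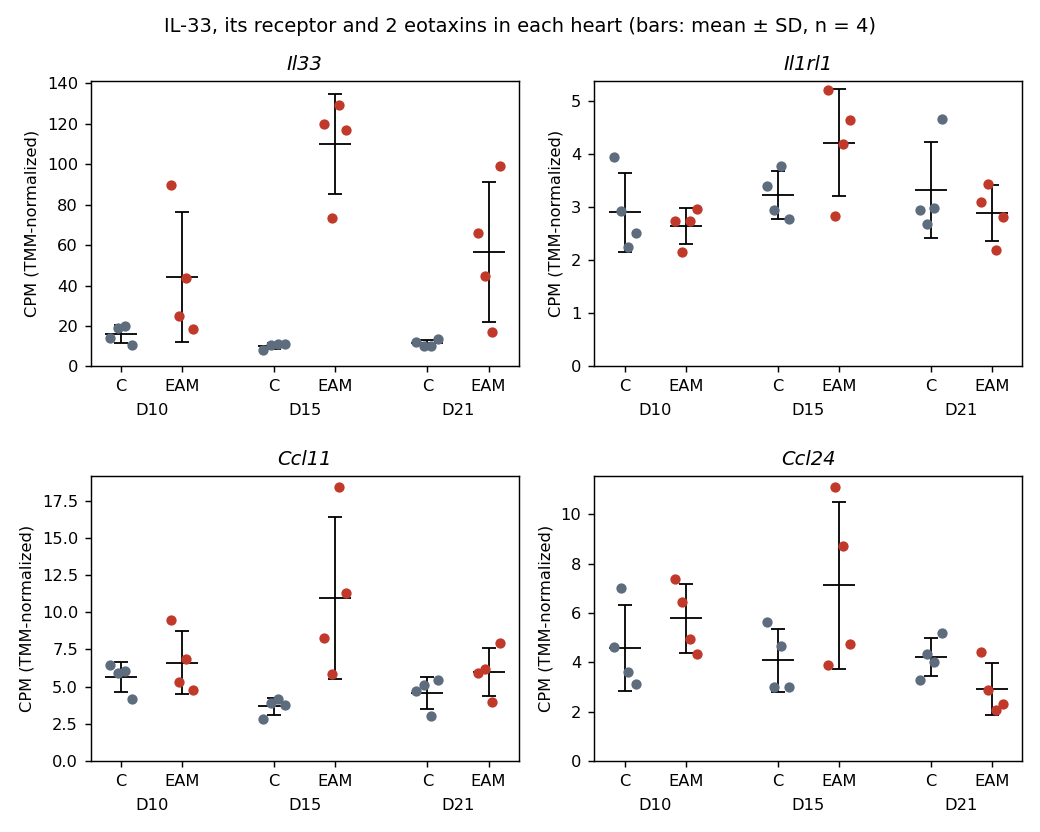
CPM of Il33, Il1rl1, Ccl11 and Ccl24 in each of the 24 hearts, by day, for control (C, grey) and EAM (red) hearts, with bars for mean and SD of 4 hearts. The D15 EAM hearts lie between 73.4 and 129 CPM of Il33, above all controls, while the Il1rl1 points of the 2 groups overlap at each day.

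The adaptor Myd88, which acts downstream of ST2, and Il1rap, the co-receptor of ST2, rose at D15. Of the 12 genes listed for IL-33 receptor signalling, which also serve other receptors of the family, all 12 were tested at D15, 6 were called higher and 0 lower, with a median log2 fold change of 0.92 where the median over all genes tested was 0.02. The 2 highest were Myd88 at 2.25 ± 0.08 (edgeR adjusted p = 3.91e-08) and Il1rap, the second chain of the receptor, at 2.04 ± 0.14 (adjusted p = 1.76e-06). The 2 lowest were Sigirr, an inhibitory receptor of this family, at -0.31 ± 0.10 and the kinase gene Map3k7 at -0.30 ± 0.06, both less than 2-fold. At D10 and D21 the same list gave 0 calls in edgeR, with medians of 0.23 at each.

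Ccl11 (chromosome 11, 82057823 to 82062955, plus strand) encodes eotaxin-1, which is made by fibroblasts and other stromal cells. Control hearts held 6.45, 5.89, 6.06 and 4.16 CPM at D10, 2.81, 3.9, 4.19 and 3.77 CPM at D15, and 4.73, 5.14, 3.02 and 5.43 CPM at D21. EAM hearts held 9.5, 5.32, 6.85 and 4.75 CPM at D10, 8.28, 5.85, 18.4 and 11.3 CPM at D15, and 5.91, 6.16, 3.94 and 7.94 CPM at D21. The groups were apart at D15 only, and overlapped at the other days. The fitted log2 fold change was 1.61 ± 0.33 at D15 (edgeR adjusted p = 0.00163), 0.22 ± 0.24 at D10 (adjusted p = 0.618) and 0.42 ± 0.26 at D21 (adjusted p = 0.233). At D10 the sign rested on EAM replicate 1, without which the value was -0.02.

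Ccl24 (chromosome 5, 135569937 to 135573049, minus strand) encodes eotaxin-2, a product of macrophages. Control hearts held 4.62, 7.02, 3.59 and 3.11 CPM at D10, 5.62, 3.01, 4.66 and 3 CPM at D15, and 3.3, 4.32, 4.03 and 5.17 CPM at D21. EAM hearts held 7.38, 6.46, 4.95 and 4.33 CPM at D10, 3.91, 11.1, 8.69 and 4.74 CPM at D15, and 4.43, 2.89, 2.07 and 2.32 CPM at D21. At D15, 2 of 4 EAM hearts lay above all controls, and at D21, 3 of 4 lay below all controls. The fitted log2 fold change was 0.84 ± 0.35 at D15 (edgeR adjusted p = 0.0561), 0.32 ± 0.28 at D10 (adjusted p = 0.534) and -0.49 ± 0.27 at D21 (adjusted p = 0.176). D15 EAM replicate 2 held the highest Ccl24 level, and without it the value at that day was 0.53 (edgeR adjusted p = 0.156). Without D10 EAM replicate 1 the D10 value was 0.17 (edgeR adjusted p = 0.822).

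Among other chemokines that can bind CCR3 but also bind other receptors, Ccl5, Ccl7 and Ccl8 reached higher fitted folds at D15 than the eotaxins. Of the 5 listed, 3 were tested at D15 and all 3 were called higher: Ccl5 at a log2 fold change of 6.39 ± 0.30 (edgeR adjusted p = 1.72e-07), Ccl8 at 4.09 ± 0.34 (adjusted p = 6.46e-06) and Ccl7 at 3.57 ± 0.35 (adjusted p = 1.56e-05). Ccl28 had 19 reads over the D15 EAM hearts and 35 over the D15 controls (0.193 and 0.497 CPM on average), Ccl26 had 1 and 1, and neither was tested at that day. At D21, 4 were tested and Ccl5 and Ccl8 were called higher. At D10, 4 were tested and 0 were called in edgeR.

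**Figure D2:**
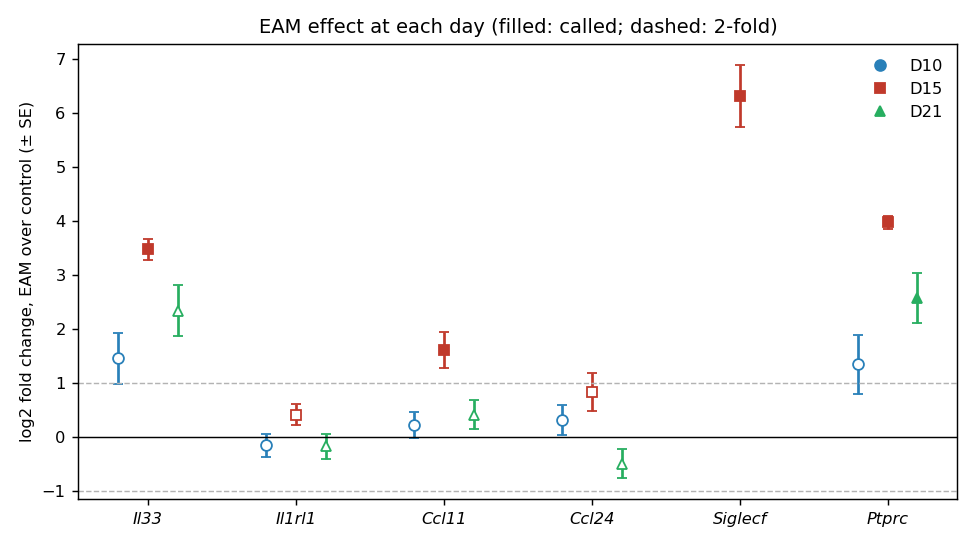
Fitted log2 fold change of EAM over control hearts with its SE (vertical axis) for 5 members and Ptprc at D10, D15 and D21, with filled symbols for called values and dashed lines at 2-fold. Il33 is at 1.46, 3.48 and 2.34 and Ptprc at 1.35, 3.98 and 2.58, whereas Il1rl1 and Ccl24 stay within the dashed lines, and Siglecf has a value at D15 only.

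Among the 5 eosinophil genes, Siglecf and Rnase2a rose at D15 and the other 3 stayed under 50 reads in every heart. Siglecf (chromosome 7, 43351341 to 43359531, plus strand) encodes a sialic acid receptor of eosinophils, which alveolar macrophages also carry. In control hearts it had 4, 2, 0 and 0 reads at D10, 0, 0, 0 and 2 reads at D15, and 3, 1, 0 and 4 reads at D21. In EAM hearts it had 46, 3, 5 and 3 reads at D10, 71, 95, 55 and 47 reads at D15, and 31, 12, 3 and 37 reads at D21. The D15 EAM hearts were all far above the controls, with 2.6 ± 0.671 CPM against 0.0294 ± 0.0589 CPM, while at D10 and D21 single EAM hearts fell within the control range. At D15 the fitted log2 fold change was 6.32 ± 0.58 (edgeR adjusted p = 1.09e-05), but Siglecf entered that fit through EAM hearts alone. The ratio of summed reads, 268 against 2 and scaled by library size, was 95 with a 95% counting interval of 26 to 788. Both control reads came from replicate 4, without which the control group had 0 reads and EAM hearts were at least 48.5-fold higher, taking 3 reads over the group as the floor.

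At D10 and D21 Siglecf failed the filter on low counts, and an exact two-sided permutation test of its CPM, added after its values were seen, gave p = 0.114 at D10 and p = 0.0571 at D21. The smallest p that 4 against 4 hearts allow is 0.0286. Without D10 EAM replicate 1 the D10 difference was 0.12 CPM in place of 0.577 CPM (exact permutation test, p = 0.2). At D21, Siglecf and Rnase2a were each higher in EAM, in CPM, in 4 of 4 same-numbered pairs of hearts, which the labels do not tie together. In replicate 3 Rnase2a stood at 0.134 against 0.131 CPM, from 2 reads in EAM and 3 in control, so that pair rests on library scaling. By themselves 4 pairs could not give a p under 0.125, and the share of all genes with 4 of 4 pairs higher was not computed.

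Rnase2a (chromosome 14, 51255262 to 51256112, minus strand), formerly Ear11, encodes an eosinophil-associated ribonuclease and is also known from alternatively activated macrophages. Control hearts had 0, 1, 0 and 1 reads at D10, 0 reads in all 4 at D15, and 1, 0, 3 and 3 reads at D21. EAM hearts had 65, 3, 5 and 5 reads at D10, 41, 489, 82 and 42 reads at D15, and 9, 5, 2 and 20 reads at D21. EAM hearts lay above all controls at D10 and D15, and 3 of 4 did so at D21. The difference at D15 passed the test (edgeR adjusted p = 0.00591), but Rnase2a entered that fit through EAM hearts alone, so the call is no support by itself. With 0 control reads the D15 EAM hearts were at least 155-fold higher than the floor of 3 reads over the group. Replicate 2 held 71.6% of the summed CPM of the 4 D15 EAM hearts, and without it the bound was 54.1-fold (edgeR adjusted p = 0.000223). Without any 1 of the 4 control hearts the adjusted p was 0.0108 to 0.0117, outside the limit. The added exact permutation test gave p = 0.0286 at D10, the smallest it can give, and p = 0.0571 at D21, with an EAM minus control difference of 0.867 CPM at D10 and 0.404 CPM at D21. Without D10 EAM replicate 1 the D10 difference was 0.208 CPM (0.237 against 0.0293 CPM, exact permutation test, p = 0.0286, again the smallest it can give).

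Rnase2a belongs to a family of near copies, so the annotated transcripts were compared. The longest stretch that Rnase2a shared exactly with Ear1, Ear2 or Ear10 was 46 bases, with Rnase2b 38, with Ear6 33 and with Ear14 31, all shorter than the 75 bases of a read. Ear2 and Ear10, by contrast, shared a stretch of 185 bases and Ear1 and Ear2 one of 96, so that reads of those genes could be ambiguous. The Rnase2b and Ear14 genes were added to this comparison after the values were seen.

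Ccr3 (chromosome 9, 124021972 to 124031689, plus strand) encodes the eotaxin receptor. It had 3, 2, 2 and 0 reads in D10 control and 4, 0, 3 and 2 reads in D10 EAM hearts. At D15 it had 0, 0, 0 and 1 reads in control and 9, 17, 13 and 2 in EAM hearts. At D21 it had 1, 2, 0 and 2 reads in control and 8, 3, 2 and 5 in EAM hearts. In CPM the groups did not overlap at D15 or D21 and overlapped at D10. At D15 the lowest EAM heart had 2 reads and the highest control 1. At D21 both had 2 reads, at 0.134 and 0.102 CPM, so that gap came from library scaling. Of all genes tested, 36.2% at D15 and 17.8% at D21 had all 4 EAM hearts above all 4 controls. Over all days, the average EAM heart held 0.251 CPM and the average control heart 0.0578 CPM (n = 12 each), and an exact two-sided permutation test with labels exchanged within each day gave p = 0.00188. At D15 the ratio of 41 to 1 summed reads, scaled by library size, was 29.1 with a 95% counting interval of 4.93 to 1180.

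Prg2 (chromosome 2, 84980461 to 84983632, plus strand) encodes major basic protein. It had 0, 0, 1 and 2 reads in D10 control and 4, 0, 2 and 1 reads in D10 EAM hearts. At D15 it had 1, 1, 2 and 0 reads in control and 7, 47, 3 and 12 in EAM hearts, and at D21 0, 1, 0 and 5 reads in control and 13, 4, 1 and 1 in EAM hearts. D15 was the only day at which the groups did not overlap, with 3 reads in the lowest EAM heart and 2 in the highest control. Replicate 2 held 65.1% of the CPM of the D15 EAM group. Over all days the mean difference was 0.262 CPM (0.321 against 0.0589 CPM, n = 12 each, exact permutation test within days, p = 0.0102), and without D15 EAM replicate 2 it was 0.149 CPM (p = 0.0149, exact permutation test).

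Epx (chromosome 11, 87864000 to 87875536, minus strand), the eosinophil peroxidase and among the members the one most restricted to eosinophils, had 0 reads in all 12 control hearts. It had 1, 0, 0 and 1 reads in D10 EAM hearts, 1, 8, 5 and 4 in D15 EAM hearts, and 0 reads in all 4 D21 EAM hearts. Reads were thus found in every EAM heart of D15, and in no heart of D21. Over all days the difference of means was 0.0653 CPM (n = 12 each, exact permutation test within days, p = 0.00612). At D15 the 18 summed reads of EAM hearts were at least 4.25-fold above the floor of 3 reads over the control group, or 3.28-fold without replicate 2. At D21 the count of 0 over 4 EAM hearts allows up to 3 reads in the group.

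Il5 (chromosome 11, 53720794 to 53725106, plus strand) encodes the cytokine that sustains eosinophils and was barely detected. It had at most 4 reads in any heart and 21 reads in all 24, 13 of them in control and 8 in EAM hearts. EAM hearts averaged 0.0325 CPM and controls 0.0555 CPM (n = 12 each, exact permutation test within days, p = 0.335). No difference was detected from these few reads. The tests of Ccr3, Prg2, Epx and Il5 were 4 in number and their p-values are not adjusted. Without the filter on low counts, edgeR's test at D15 also called Ccr3 (adjusted p = 0.00244), Epx (adjusted p = 0.00919) and Prg2 (adjusted p = 0.00935), which made 7 members called in place of 4, and left Il5 uncalled (adjusted p = 0.377). The share of all genes called without the filter was not computed, so this count has no background to be set against.

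**Figure D3:**
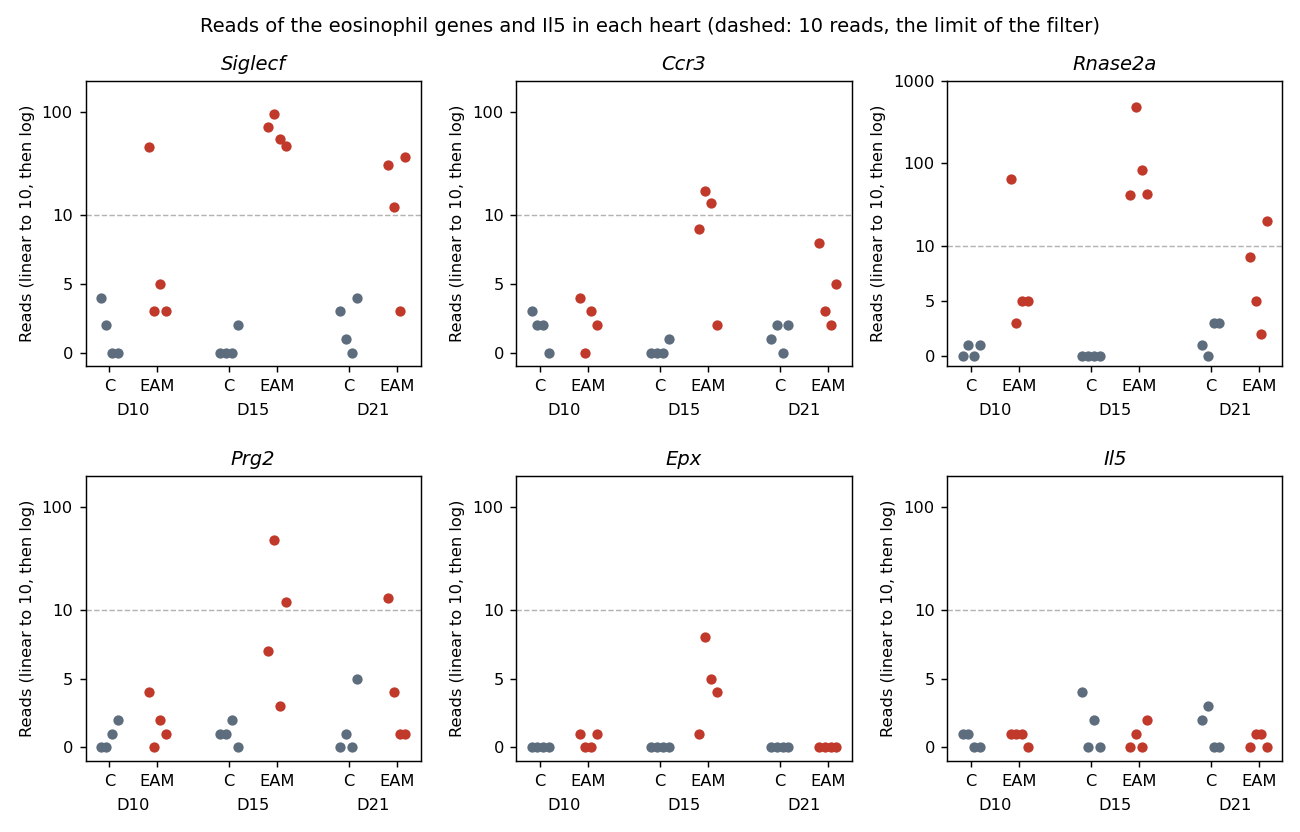
Reads of Siglecf, Ccr3, Rnase2a, Prg2, Epx and Il5 in each heart on an axis that is linear up to 10 reads and logarithmic above, with a dashed line at 10 reads, for control (C, grey) and EAM (red) hearts by day. The 4 D15 EAM hearts lie between 47 and 95 reads for Siglecf and between 41 and 489 for Rnase2a, while Epx stays at 8 or fewer and Il5 at 4 or fewer.

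Among receptors and neighbours of the IL-5 family, genes of many leucocytes reached high folds while the IL-5 binding chain had few reads. Of 19 genes listed for the IL-5 family and type 2 cytokines and receptors, 13 were tested at D15 and 11 were called higher. Of these, Il13, Csf2 and Il13ra2 reached 10 reads in 0 control hearts and could enter only if high in EAM hearts, while of the 9 genes at 10 reads in all 4 controls 8 were called higher. Csf2rb, the signalling chain shared by the receptors of IL-5, IL-3 and GM-CSF, was 5.66 ± 0.15 (edgeR adjusted p = 1.31e-08), whereas Il5ra, the chain that binds IL-5, had 9 reads over the 4 D15 EAM hearts and was not tested. Csf2, which encodes GM-CSF, had 219 reads in D15 EAM and 1 in D15 control hearts. Il13 had 62 reads in D15 EAM and 0 in D15 control hearts, and both genes were called higher. Il4 and Tslp had fitted values of -0.35 ± 0.30 (edgeR adjusted p = 0.316) and -0.38 ± 0.29 (adjusted p = 0.25). Of the same list 10 were tested at D21 and 5 were called higher, and at D10 10 were tested and 0 called in edgeR.

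Of 13 eosinophil markers, 4 are members (Siglecf, Ccr3, Epx and Prg2), and 4 could be tested at D15: Siglecf, Cebpe at 5.44 ± 0.71 (edgeR adjusted p = 9.72e-05), Alox15 at 4.35 ± 0.72 (adjusted p = 0.000439) and Ear2 at 3.25 ± 0.39 (adjusted p = 5.57e-05). All 4 were called higher, but each reached 10 reads in the 4 EAM hearts and in 0 control hearts, so that the filter on low counts let them enter only if high in EAM hearts, and the count is no support for the list. Cebpe, a granule gene regulator, is also used by neutrophils, and Alox15 by macrophages. Of the markers not tested, Prg3 had 2 reads and Il5ra 9 over the 4 D15 EAM hearts. Gata1, which erythroid and mast cells also use, had 15 there, 2 over the D15 controls and 18 over the D10 controls. The markers summed to 0.471 to 0.885 CPM in D15 control and 7.56 to 21.4 CPM in D15 EAM hearts, where the 21.4 CPM was replicate 2 and the other 3 hearts held 7.56 to 10.9 CPM.

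At D15, 7 of 10 macrophage and 7 of 7 neutrophil markers were called higher, against 1 of 8 mast cell and 0 of 6 endothelial markers tested. Of all genes tested at D15, 18.1% were called higher and 12.9% lower. The mast cell and endothelial counts are not far from these shares, and no list was tested against them. Macrophage markers summed to 449 to 552 CPM in D15 control and 1440 to 2280 CPM in D15 EAM hearts, with 7 of 10 called higher. Neutrophil markers summed to 16.8 to 82.1 CPM in D15 control and 553 to 950 CPM in D15 EAM hearts, with 7 of 7 called higher. Of 9 markers of type 2 innate lymphoid and Th2 cells, 6 were tested at D15 and 4 called higher (Il13, Klrg1, Icos and Gata3). Il13 and Klrg1 reached 10 reads in 0 control hearts and Icos and Gata3 in some only, and of the 2 markers that did so in all 4 controls 0 were called in edgeR, so the filter bears on this count. Mast cell markers gave 1 higher call of 8 tested at D15, Hdc at 3.59 ± 0.12 (edgeR adjusted p = 2.48e-08), which neutrophils and basophils also use. The mast cell protease genes were Tpsab1 at 0.88 ± 0.27, Cma1 at 0.37 ± 0.22, Tpsb2 at 0.31 ± 0.22, Cpa3 at 0.17 ± 0.23 and Mcpt4 at -0.69 ± 0.18. Kit was at 0.52 ± 0.13, and none of these was called at D15. At D21 Mcpt4 was called lower, at -1.78 ± 0.23 (edgeR adjusted p = 0.00473). Fibroblast markers gave 3 higher calls of 8, endothelial markers 1 lower call of 6 and cardiomyocyte markers 5 lower calls of 8. The 1 basophil marker tested, Gata2, which endothelial cells also use, was not called, with 21.8 CPM in D15 control and 13.8 CPM in D15 EAM hearts on average. The other 5 had too few reads for the test and more reads in D15 EAM than in D15 control hearts, among them the basophil protease genes Mcpt8 with 88 against 7 reads and Prss34 with 76 against 6 reads, and Cd200r3, Ms4a2 and Fcer1a with 27, 23 and 20 against 5, 9 and 5 reads. In whole tissue RNA, fewer or more cells of a type and less or more RNA per cell cannot be told apart, and the part of cell composition in the members' values was not tested.

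Reads of the members were also set against those of the general leucocyte transcript Ptprc, a ratio chosen after the values were seen and given without a test. Per 1000 Ptprc reads, the summed reads of Siglecf were 8.54 in D10, 9.51 in D15 and 8.59 in D21 EAM hearts and 3 over the 12 controls, the latter from 16 Siglecf reads. The D10 value rested on replicate 1, without which it was 4.79, and the D15 value was 8.29 without replicate 2. Single EAM hearts ranged from 3.8 to 10.5 at D10, from 6.05 to 13 at D15 and from 4.1 to 10.3 at D21, and single controls of any day from 0 to 6.97. The EAM hearts of each day overlapped this range, and those of D15 lay above the D15 controls, at 0 to 5.68.

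For Rnase2a the sums per 1000 Ptprc reads were 11.7, 23.2 and 3.73 in EAM hearts of the 3 days, and 0.906, 0 and 3.83 in controls. The EAM value was 5.66 at D10 without replicate 1 and 7.9 at D15 without replicate 2, and at D21 it was no higher than that of controls. Ccr3 had 1.35, 1.45 and 1.86 in EAM hearts against 2.44 over the 12 controls, and 2.18 at D10 without replicate 1. Prg2 had 1.05, 2.45 and 1.97 against 2.44, and 1.05 at D15 without replicate 2. Neither stood clearly above the pooled controls on this scale. Against controls of the same day, Ccr3 was higher at D15 only, where the controls were at 0.77 from 1 read. Prg2 was below the controls of the same day at each day. For Il33 the values were 539, 393 and 436 in EAM hearts and 527 over the 12 controls, with 683 at D10 without replicate 1. These genes share libraries and the immunized animals, and no correlation was computed.

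**Figure D4:**
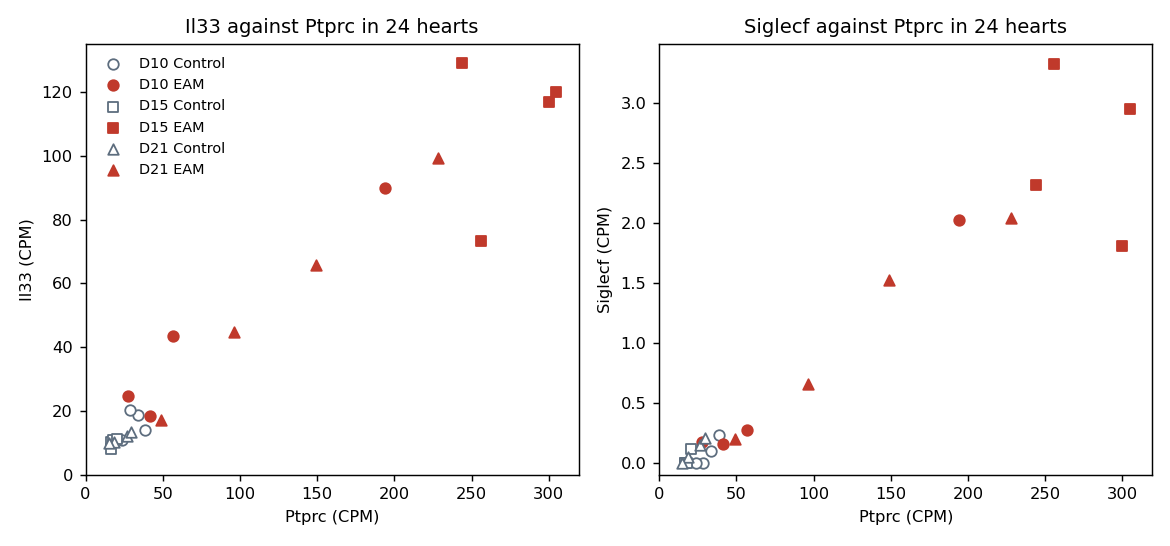
Il33 (left) and Siglecf (right) against Ptprc, all in CPM on linear axes, with 1 point per heart for the 24 hearts, filled for EAM and open for control, and with circles for D10, squares for D15 and triangles for D21. D10 EAM replicate 1, at 194 CPM of Ptprc, lies near the D21 EAM hearts, and D21 EAM replicate 3, at 48.9 CPM, near the controls.

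The D15 EAM heart with the highest Rnase2a level, replicate 2, also had the highest levels of several transcripts of macrophages and eosinophils. Its share of the summed CPM of the 4 D15 EAM hearts was 67.5% for Chil3, a chitinase-like gene of alternatively activated and alveolar macrophages, 64.3% for the scavenger receptor Marco, 49.8% for Alox15, 45.1% for Cebpe, 41.8% for Ear2 and 40.8% for Epx. Its share was 32% for Siglecf, 37.3% for Ccr3, 23.2% for Ptprc and 16.7% for Il33. Replicate 2 was thus high for these transcripts and the lowest of its group for Il33. Its general macrophage markers, at 2250 CPM, lay within the 1440 to 2280 CPM of the other 3 hearts. Its neutrophil markers were higher, at 950 against 553 to 638 CPM, and its cardiomyocyte markers lower, at 8090 against 11600 to 20800 CPM. The 7 alveolar macrophage markers summed to 475 CPM in replicate 2, of which Chil3 made up 402 CPM, and to 86 to 101 CPM in the other 3 D15 EAM hearts. The lung epithelial genes Sftpc, Scgb1a1 and Cldn18, looked up after these values were seen, had 0 reads in replicate 2. The part of another tissue or cell type in these values was not tested further.

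**Figure D5:**
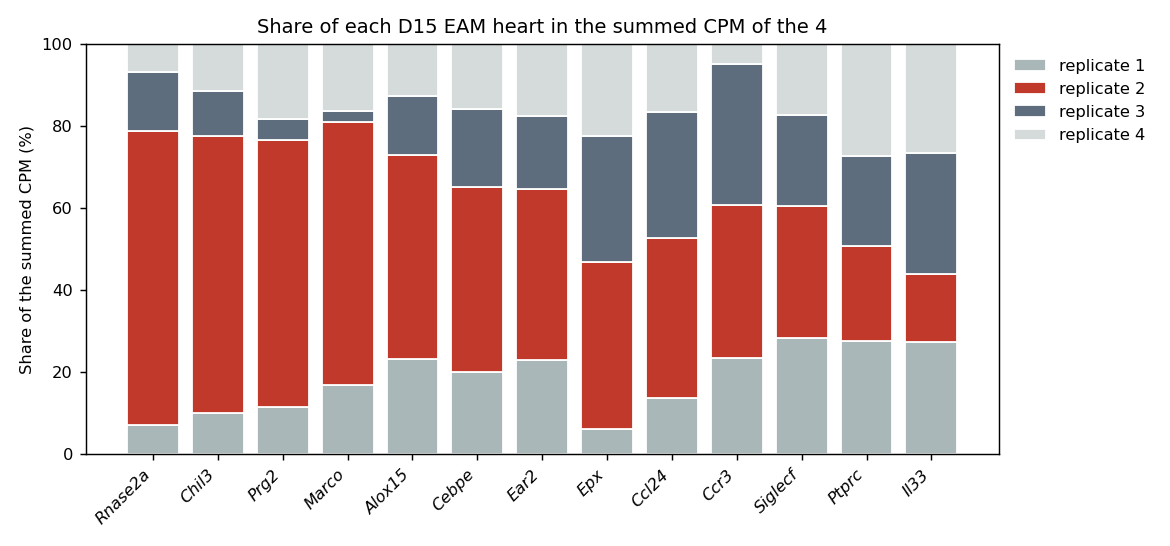
Share of each of the 4 D15 EAM hearts in the summed CPM of the group (stacked bars, in percent) for 13 genes. Replicate 2 (red) holds 71.6% of Rnase2a and 67.5% of Chil3 but 23.2% of Ptprc and 16.7% of Il33.

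Differences of the EAM effect between days were tested in a fit of all 24 hearts. Between D15 and D10, 0 of 6 members tested were called in edgeR, where 5.38% of 16318 genes were called with a higher and 7.35% with a lower effect at D15. For 2 members, Ccl11 and Il33, the unadjusted p was under 0.05. The effect on Il33 was higher at D15 by 1.97 ± 0.61 on the log2 scale (edgeR adjusted p = 0.0132) and that on Ccl11 by 1.35 ± 0.42 (adjusted p = 0.0141). Without D10 EAM replicate 1 both were called, at 2.63 (edgeR adjusted p = 0.000618) and 1.62 (adjusted p = 0.00329), and both were called by the likelihood ratio test and DESeq2 but neither by limma-voom. Without D15 EAM replicate 2, Ccl11 alone was called (edgeR adjusted p = 0.00689).

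Between D21 and D15, 0 of 6 were called in edgeR, with backgrounds of 2.74% higher and 0.919% lower, and 3 (Ccl11, Ccl24 and Rnase2a) had an unadjusted p under 0.05. The difference was -1.31 ± 0.47 for Ccl24 (edgeR adjusted p = 0.0409), -1.18 ± 0.42 for Ccl11 (adjusted p = 0.0414) and -1.13 ± 0.61 for Il33 (adjusted p = 0.165). The likelihood ratio test and DESeq2 each called 1 member, Rnase2a, and limma-voom called 0. In edgeR the fitted difference of Rnase2a was -7.43 ± 3.13 (adjusted p = 0.0828), which with 0 reads in the D15 controls is no measure of size, and the gene reached 10 reads in EAM hearts alone.

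Control hearts were compared between days as well, since they carry adjuvant and toxin. Of 4 members tested, 0 were called between D15 and D10 or between D21 and D10 in edgeR, by the likelihood ratio test or by DESeq2, with backgrounds of 0% higher and 0.0718% lower, and of 0.607% higher and 0.353% lower. At unadjusted p under 0.05 there were 2 (Ccl11 and Il33) and 1 (Il33). The Il33 level of control hearts at D15 was lower than at D10 by -0.65 ± 0.18 on the log2 scale (edgeR adjusted p = 0.0802), and at D21 by -0.48 ± 0.18 (adjusted p = 0.0923). For Ccl11 the values were -0.61 ± 0.20 (edgeR adjusted p = 0.125) and -0.31 ± 0.19 (adjusted p = 0.315). The EAM differences at D15 are thus measured against a control group whose Il33 and Ccl11 means, 10.1 and 3.67 CPM, were the lowest of the 3 control groups.

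Ordered by mean level, Il33 ran from D15 EAM to D21 EAM, D10 EAM, D10 control, D21 control and D15 control, and each neighbouring pair overlapped in range. Ccl11 ran from D15 EAM to D10 EAM, D21 EAM, D10 control, D21 control and D15 control, again with overlap between neighbours. For Ccl24 the lowest group was D21 EAM, at 2.93 ± 1.06 CPM, and for Il1rl1 it was D10 EAM, at 2.64 ± 0.344 CPM. Per length, the members of D15 EAM hearts ranked Il33 at 38.1, Ccl11 at 10.1, Rnase2a at 8.66, Ccl24 at 5.5, Siglecf at 0.933, Prg2 at 0.754, Il1rl1 at 0.611, Ccr3 at 0.122, Epx at 0.0628 and Il5 at 0.0182 RPKM. Without replicate 2 the order turned in 2 places. Rnase2a, at 3.28 RPKM, came below Ccl24 at 4.46 RPKM, and Prg2, at 0.35 RPKM, below Il1rl1 at 0.677 RPKM.

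The genes whose profile over the 24 hearts lay nearest to a member were found by the root mean square difference of centred log2(CPM + 1), among 14217 genes whose mean reached 1 CPM. For Il33 they were Tmem173, Adora2b and Fcer1g, at 0.24 to 0.25, where the SD of Il33 itself was 1.33. For Siglecf they were Cap1, Rab8b and Mfsd1 at 0.13 to 0.14, against an SD of 0.74, and for Rnase2a they were Cd33, Fmnl2 and Fst at 0.39 to 0.45, against an SD of 1. For Ccl11 they were Cp, Wars and Rdh10 at 0.25 to 0.26, against an SD of 0.52. The nearest genes to Il1rl1 (Chst10, Rgl1 and Sft2d2, at 0.19) were not much nearer than that member's own SD of 0.26. Adding 1 CPM flattens the profiles of genes with few reads, here Siglecf, at most 3.33 CPM in any heart, and Rnase2a. The genes nearest to these 2 members match the flattened profile and not the fitted fold change.

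Genes that place or guide eosinophils in tissue but serve other leucocytes too were mostly higher at D15. Of 11 adhesion and trafficking genes, 9 were tested and 8 called higher, among them the integrin chains Itgb2 at 5.30 ± 0.19 (edgeR adjusted p = 3.23e-08) and Itgb7 at 5.12 ± 0.17 (adjusted p = 2.24e-08) and, on the endothelial side, the alpha4 integrin ligand Vcam1 at 1.98 ± 0.11 (adjusted p = 4.17e-07). Of 11 transcription factors of the eosinophil lineage, 10 were tested and 7 called higher, or 6 of 9 without Cebpe, which passed the filter through EAM hearts alone. Among the 9, Spi1, which also directs macrophages, was at 3.82 ± 0.11 (edgeR adjusted p = 1.4e-08), while Zfpm1 at -0.58 ± 0.12 and Gata2 at -0.62 ± 0.18 were not called. Of 8 genes of STAT6 and alternative activation, 7 were tested and 4 called higher. Arg1, at 11.91 ± 0.65 (edgeR adjusted p = 4.36e-07), had 7 reads over the D15 control hearts and entered through EAM hearts alone, and of the 5 genes at 10 reads in all 4 controls 2 were called higher.

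Sequences upstream of the starts are shown for the members whose reads separated EAM from control hearts and for which a RefSeq window of GRCm38.p6 was given. Windows hold 250 bases before and 50 bases after the start, 5′ to 3′ in the direction of the gene, and were matched for 7 of the 10 members with 9 windows in all. Ccl11, Ccl24 and Prg2 are named only. Capitals mark GATAA on either strand (TTATC where it lies on the other), the core bound by GATA factors, and TTC and GAA with any 4 bases between them, a palindrome bound by STAT6.
Siglecf, chr7:43351091-43351390, plus strand: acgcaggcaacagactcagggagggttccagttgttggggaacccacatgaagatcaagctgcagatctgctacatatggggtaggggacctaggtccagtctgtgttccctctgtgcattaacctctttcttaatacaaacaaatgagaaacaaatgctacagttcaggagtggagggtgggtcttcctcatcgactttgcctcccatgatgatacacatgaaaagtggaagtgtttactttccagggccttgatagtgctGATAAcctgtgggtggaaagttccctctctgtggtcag
Ccr3, chr9:124021721-124022020, plus strand: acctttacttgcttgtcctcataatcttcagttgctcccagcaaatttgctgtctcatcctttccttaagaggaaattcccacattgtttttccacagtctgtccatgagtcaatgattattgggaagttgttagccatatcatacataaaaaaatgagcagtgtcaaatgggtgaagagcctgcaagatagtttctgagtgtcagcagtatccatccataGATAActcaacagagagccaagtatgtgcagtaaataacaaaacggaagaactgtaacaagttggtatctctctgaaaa
Rnase2a, chr14:51256063-51256362, minus strand: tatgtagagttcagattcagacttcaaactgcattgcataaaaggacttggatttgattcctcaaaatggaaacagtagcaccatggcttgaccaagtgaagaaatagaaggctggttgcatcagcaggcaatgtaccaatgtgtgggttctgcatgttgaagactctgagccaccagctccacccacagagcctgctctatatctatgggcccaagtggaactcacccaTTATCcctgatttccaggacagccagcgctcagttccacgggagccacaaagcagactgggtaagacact
Epx, chr11:87875487-87875786, minus strand: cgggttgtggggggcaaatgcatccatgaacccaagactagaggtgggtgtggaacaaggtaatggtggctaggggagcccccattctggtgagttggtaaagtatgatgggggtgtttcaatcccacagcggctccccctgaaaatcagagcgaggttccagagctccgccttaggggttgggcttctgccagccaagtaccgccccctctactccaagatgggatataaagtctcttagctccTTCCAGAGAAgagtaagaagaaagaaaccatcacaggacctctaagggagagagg
Il33, upstream start, chr19:29924863-29925162, plus strand: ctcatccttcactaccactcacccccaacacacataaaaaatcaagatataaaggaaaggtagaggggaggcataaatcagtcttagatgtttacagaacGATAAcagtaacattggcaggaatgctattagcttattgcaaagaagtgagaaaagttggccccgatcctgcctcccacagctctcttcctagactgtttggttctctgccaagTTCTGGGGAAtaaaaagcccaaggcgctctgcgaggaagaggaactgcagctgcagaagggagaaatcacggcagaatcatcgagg

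GATAA was found in 6 of the 9 windows and in 5 of the 7 members (Ccr3, Siglecf, Rnase2a, Il33 and Il1rl1), and in 25.4% of 32851 windows of the same length. In Ccr3 it began 29 bases and in Rnase2a 20 bases before the start, and in Siglecf at base 13 after it. The STAT6 palindrome was found in Epx and in the upstream window of Il33, and in 6.95% of all windows. A match describes letters in the window and does not show that a factor binds there.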

How the data were processed

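Myocardial RNA of 24 hearts was sequenced as 75 base read pairs. The authors used HISAT2 2.0.4 and GRCm38 for alignment, took out duplicate pairs (Picard) and assigned the remaining pairs to genes (featureCounts). What they deposited are raw, unscaled counts. Samples were grouped from their titles. The table lists 41388 genes and 92 spike-in features with 0 reads in all. Symbols and positions came from GENCODE M21.

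Counts were fitted with edgeR 4.0.16 in R 4.3.3 at each day separately, with TMM scaling, on genes that reached 10 reads in 4 or more samples. Effects between days used all 24 samples, and control hearts their 12. CPM is scaled by TMM over 24 samples, and RPKM divides it by the joined exon length. SE is the fold change divided by the root of F. Members outside every fit were compared by an exact permutation test of CPM within days. Alternatives used DESeq2 1.42.0, limma 3.58.1, other scalings, filters, limits and controls, a replicate block and each library left out. Tables were made with pandas 2.3.3 (Python 3.11.15), exact tests with scipy 1.17.1 and numpy 2.4.6 and plots with matplotlib 3.10.9. Model scripts were tested on simulated data.

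The members and gene lists were chosen with earlier results of these data known. All 10 members are named, and of each list at most the 2 highest and 2 lowest fitted values at D15. Other list genes are named for their role, after their values were seen. The genes nearest in profile to Ccl24 are not reported here. Intervals and floors cover counting error only, since reads are not independent molecules. The p-values measure the spread between these hearts.

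What the replicate numbers mark is not given in the labels. Deviations from the group means were correlated between EAM and control hearts with the same number. The correlation was over 0.1 in all 4 pairs at D21 (0.101 to 0.307), in 2 of 4 at D10 (0.365 and 0.407) and in 0 of 4 at D15. Hearts with different numbers were not compared, so these values cannot show whether the numbers pair the hearts. The tests reported are unpaired, and the replicate block was run as an alternative at every day.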

Additional observations from a re-analysis of the deposited data

Results flagged for a closer look

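In 33 groups of 4 hearts in which a member had at least 10 reads in a heart, 4 values, from 3 hearts, stood apart from the other 3 of their group by Dixon's test at 95%, and chance alone gives about 1 in 20 groups. D10 EAM replicate 1 held 2.03 CPM of Siglecf against 0.158 to 0.278 CPM in the other 3 hearts, and 2.87 CPM of Rnase2a against 0.17 to 0.278 CPM. The same heart held 194 CPM of Ptprc against 27.7 to 56.7 CPM in the other 3. D15 EAM replicate 2 held 17.1 CPM of Rnase2a against 1.62 to 3.46 CPM. D21 control replicate 4 held 4.66 CPM of Il1rl1 against 2.69 to 2.98 CPM.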

How the results depend on the processing

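Of 238 recomputed member counts and low-read tests, 222 kept their side of the limit or stayed within 1.5 times, and of 662 recomputed single-member values 635 did. At D10 the count of called members was 0, and 1 (Il33) against all 12 controls. At D15 it was 4, 7 without the filter on low counts (where the share of all genes called was not computed), and 3 to 4 with a library left out. At D21 it was 0, and 1 (Il33) with the likelihood ratio test, the exact test, DESeq2, no filter, an FDR limit of 0.05, all 12 controls or the newer form of the quasi-likelihood test, an alternative chosen after seeing the data, and 0 to 2 with a library left out, the 2 being Siglecf and Il33 without D21 EAM replicate 3. Between D15 and D10 it was 0, 2 with the likelihood ratio test and with DESeq2, and 0 to 2 with a library left out. Between D21 and D15 it was 0, and 1 with each of these 2 tools. Uncalled values that changed sign when 1 library was left out were Il1rl1 at D10 (-0.25 to 0.03, positive without control replicate 1), Il1rl1 at D21 (-0.28 to 0.02) and between control hearts of D21 and D10 (-0.01 to 0.37), both without D21 control replicate 4, and Ccl24 between control hearts of D15 and D10 (-0.35 to 0.13) and of D21 and D10 (-0.28 to 0.16), both without D10 control replicate 2. Ccl11 at D10 (-0.02 to 0.34) changed sign without EAM replicate 1. The causes were not tested.

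Blocking on replicate number (the replicate block) in edgeR gave 0, 4 and 0 calls at D10, D15 and D21, with Il33 at 2.1 at D21 (edgeR adjusted p = 0.0125), and changed no call. The tests of Ccr3, Epx, Prg2 and Il5 kept their side of 0.05 with total counts and with each library left out. Members with 1 to 10 reads in a heart are limited by depth.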
